A study of Mus musculus with 12 samples.

Results

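Healthy lung endothelial cells (ECs) were described from the 3 arrays whose label gives the time point as healthy, out of 12 arrays in the series. The cells came from NSG mice, a strain that lacks mature T, B and NK cells, that were matched in age to mice injected at 6 to 8 weeks of age, and only females were used. The other 9 arrays are lung ECs of NSG mice taken 1, 2 and 3 weeks after MDA-MB-231-LM2 cells, a human breast cancer line selected for growth in the lung, were injected into the tail vein (3 arrays per week, called metastatic here). In all groups the lungs were digested with enzymes and the cells sorted for CD31, with cells carrying CD45, CD11b, EpCAM, CD140a, CD140b or GFP gated out. Each group has 3 biological replicates, and the sources used here do not say whether animals were pooled.

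The lung capillary bed is built of a thin gas-exchange EC called the aerocyte and of a general capillary EC that renews the bed and takes part in vasomotor control. Arteries, veins and lymphatics add smaller EC populations. CD31 (Pecam1) and VE-cadherin (Cdh5) hold ECs together, claudin-5 (Cldn5) seals their tight junctions, and VEGFR2 (Kdr) carries the main signal of VEGF.

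Expression is given as log2 signal of microarray probe sets, so a difference of 1 is a doubling of signal. A gene was read from the probe set with 1 symbol whose mean over the healthy arrays was highest, which gave 18193 genes. Probe sets bind their targets unequally, and signals flatten near the top of the scale. An order of genes by signal is therefore an order of signals and not of transcript numbers. The background of each array was set at the 95th percentile of 150 probe sets of sensory and skin gene families (olfactory, vomeronasal and taste receptors, keratin-associated proteins and beta-defensins), and it lay between 7.62 and 7.65 in healthy arrays. In all 3 healthy arrays 11395 genes (62.6%) were above it, 1481 genes were above it in 1 or 2 arrays, and 5317 in none. The median gene had a healthy mean of 8.74.

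The 4 markers of the sorted cells were among the highest signals. Pecam1 had log2 signals of 13.40, 13.46 and 13.50 in healthy arrays 1, 2 and 3, and Cldn5 had 13.46, 13.49 and 13.43. Cdh5 had 13.28, 13.28 and 13.44, and Kdr had 13.35, 13.32 and 13.38. Each of the 4 lay at or above percentile 99.8 of all genes in healthy ECs, and their SDs over the 3 arrays were at most 0.09.

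The genes of the antigens gated out did not behave alike. Itgam (CD11b) had log2 signals of 6.93, 7.49 and 7.16 and Epcam had 7.49, 7.48 and 7.43 in the healthy arrays. Both were below background in every healthy array. Ptprc (CD45), the tyrosine phosphatase of all leukocytes, had 9.46, 8.86 and 8.21, near the median gene and with a spread of 0.62 (SD, n = 3). Pdgfra (CD140a), a receptor of lung fibroblasts, had 11.93, 11.99 and 11.82, which put it at percentile 93.8, and Pdgfrb (CD140b), its mural cell counterpart, had 10.47, 10.19 and 10.13. Transcripts of both PDGF receptors were thus well above background in a sort that gated out both proteins. In arrays of whole sorts, a smaller share of cells of a type and less RNA per cell cannot be told apart.

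**Figure D1:**
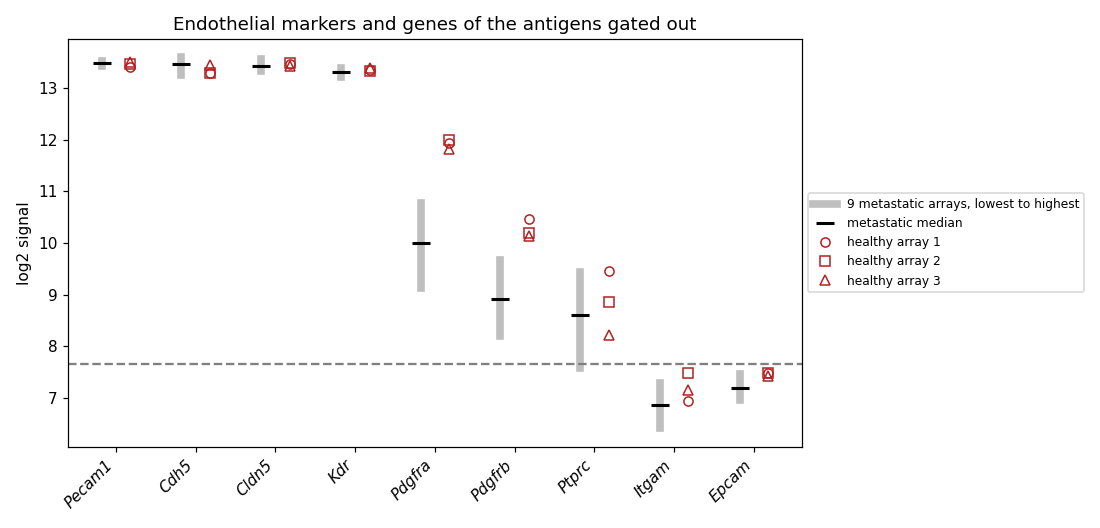
Log2 signal of the 4 endothelial markers and of the genes of 5 antigens gated out, with the 9 metastatic arrays (grey bar from lowest to highest, black line at the median) left of the 3 healthy arrays (red symbols). The dashed line is the highest healthy background, 7.65. The endothelial markers lie above 13 in all arrays, Itgam and Epcam lie below the line, and both PDGF receptor genes lie higher in every healthy array than in any metastatic array.

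Among all genes, Epas1, which encodes the hypoxia-inducible transcription factor HIF-2α, had the highest signal in healthy ECs, 13.84, 13.84 and 13.71. The other 19 of the first 20 had means between 13.47 and 13.68, and neighbours in this order did not differ beyond their SDs over the 3 arrays. Endothelial genes were Ptprb (13.51), the phosphatase VE-PTP that acts on Tie2 and VE-cadherin, Ramp2 (13.51), the partner of the adrenomedullin receptor, Egfl7 (13.48), a secreted endothelial protein, and Adgrf5 (13.56), an adhesion receptor of lung ECs and epithelium. Col4a1 (13.52), the main collagen chain of basement membranes, and Igfbp7 (13.52), a secreted binding protein, stood beside them. Hpgd (13.64) breaks down prostaglandins. Dpysl2 (13.65), Sptbn1 (13.48) and Vim (13.49) belong to the cytoskeleton and its regulators. Others serve most cells, such as the translation factor Eef1a1 (13.67), the 14-3-3 protein Ywhae (13.58), the RNA-binding protein Hnrnpab (13.57), the fatty acid elongase Elovl5 (13.56), the redox regulator Txnip (13.53) and superoxide dismutase Sod1 (13.47). Itm2b (13.64), a membrane protein, and the clone AY036118 (13.68) were also among them. The remaining gene of the 20 marks another cell type. Sftpc, which encodes surfactant protein C of alveolar type 2 cells, had 13.54, 13.53 and 13.50 in the healthy arrays and ranked 12 among the 18193 genes.

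After housekeeping families were set aside by symbol, the next genes were Cldn5, Pecam1, Akr1a1, an aldehyde reductase (13.45), Nfkbia, the inhibitor of NF-κB (13.45), Adgre5 (CD97, 13.45), the matrix protein Sparc (13.44), the endocytic protein Ehd4 (13.43), transglutaminase Tgm2 (13.43), aldehyde dehydrogenase Aldh2 (13.43), Ly6e (13.42) and the phospholipid transfer protein Pltp (13.41). Of the first 100 genes, 17 were on 1 of 6 lists of endothelial markers (97 genes measured in all), 2 were on lists of other cell types only and 7 encode ribosomal proteins. Of the first 500 genes, 45 were on the endothelial lists and 9 on lists of other cell types only. The first 100 genes of 2 healthy arrays shared 84, 84 and 80 genes with the first 100 of the third array, when array 1, 2 or 3 was held out.

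All 29 measured genes of the pan-endothelial list were above background in all 3 healthy arrays, against 62.6% of all genes. Their median was 12.86, at percentile 98.9. The lowest was Nos3, the endothelial nitric oxide synthase, with 9.85, 10.28 and 9.53, and next came the sialomucin Emcn with 11.46, 11.50 and 11.87. The list's members spanned receptors (Tie1, Flt1, Tek, Calcrl), junction proteins (Cldn5, Esam) and transcription factors (Erg, Sox17, Sox18), and 27 of the 29 had a mean over 12.

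Promoter windows of 300 bases around RefSeq starts (GRCm38.p6) were available for 16 pan-endothelial genes. Those of the 4 genes with a single window and the highest signal are shown, because these genes carry the endothelial identity of the sort. Capitals mark the letters AGGAAG or CGGAAG on either strand, a core that ETS transcription factors such as Erg and Fli1 can bind.
Cldn5: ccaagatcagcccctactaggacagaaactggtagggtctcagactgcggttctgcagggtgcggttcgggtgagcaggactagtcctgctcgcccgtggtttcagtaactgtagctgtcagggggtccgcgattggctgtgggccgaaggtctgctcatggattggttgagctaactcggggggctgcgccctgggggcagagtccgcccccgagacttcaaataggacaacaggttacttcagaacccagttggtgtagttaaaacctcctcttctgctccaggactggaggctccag
Kdr: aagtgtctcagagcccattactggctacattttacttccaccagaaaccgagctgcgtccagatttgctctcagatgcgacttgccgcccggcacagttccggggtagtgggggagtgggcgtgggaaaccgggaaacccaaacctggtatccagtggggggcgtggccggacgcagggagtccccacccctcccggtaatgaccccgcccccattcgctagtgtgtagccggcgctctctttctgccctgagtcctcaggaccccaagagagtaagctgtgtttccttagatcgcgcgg
Calcrl: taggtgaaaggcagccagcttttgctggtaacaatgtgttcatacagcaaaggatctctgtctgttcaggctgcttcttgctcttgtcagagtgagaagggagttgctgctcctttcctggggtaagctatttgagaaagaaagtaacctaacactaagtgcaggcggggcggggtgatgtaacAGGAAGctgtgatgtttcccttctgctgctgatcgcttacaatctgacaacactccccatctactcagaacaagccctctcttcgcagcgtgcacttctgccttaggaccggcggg
Tie1: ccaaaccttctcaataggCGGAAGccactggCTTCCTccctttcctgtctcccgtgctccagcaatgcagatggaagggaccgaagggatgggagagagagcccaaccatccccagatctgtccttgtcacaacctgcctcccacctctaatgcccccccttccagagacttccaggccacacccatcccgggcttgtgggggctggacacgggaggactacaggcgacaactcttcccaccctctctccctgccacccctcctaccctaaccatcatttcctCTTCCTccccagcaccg

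The windows lie at chr16:18776597-18776896 on the plus strand (Cldn5), chr5:75978406-75978705 on the minus strand (Kdr), chr2:84425217-84425516 on the minus strand (Calcrl) and chr4:118489800-118490099 on the minus strand (Tie1). Tie1 held 3 matches, Calcrl held 1, and Cldn5 and Kdr held 0. Of 21 windows of pan-endothelial genes 61.9% held a match, against 52.0% of 1947 windows of genes above the 90th percentile of healthy signal and 46.5% of 32851 windows outside chromosome 18. A match says only that the letters are there.

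Markers of each EC subtype were measured above background. The general capillary list had a median of 12.65 (16 of 17 genes above background in 3 arrays), led, apart from Ptprb and the complement receptor-like Cd93, by Sema3c (13.12), a guidance factor. Gpihbp1, which carries lipoprotein lipase across capillary ECs, had 12.68, 12.72 and 12.82, whereas Il7r, the interleukin 7 receptor, was the lowest gene and was below background in all 3 arrays (6.91, 6.43 and 6.75). All 17 genes of the aerocyte list were above background, with a median of 12.44. Car4, a carbonic anhydrase on the aerocyte surface, had 13.19, 13.30 and 13.10, and Fibin was the lowest at 10.21.

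The arterial list had a median of 12.18 (16 of 18 genes above background), the venous list one of 11.30 (14 of 14) and the lymphatic list one of 10.24 (10 of 11). Large-vessel genes varied widely in signal. Cxcl12, a chemokine of arteries and capillaries (13.07), and the Notch target Hey1 (12.88) were high among arterial genes, and Dkk2 (7.45) and Hey2 (7.43) were at background in 2 of 3 arrays. Vwf, the von Willebrand factor, had 12.92, 12.96 and 12.97, and Ackr1, a chemokine scavenger of venules, had 9.24, 8.46 and 8.80. Lyve1, the hyaluronan receptor that both lists hold, was high (13.22, 13.22 and 13.12), while Prox1, the transcription factor that specifies lymphatic ECs, had 10.32, 9.49 and 9.52, highest in array 1. Of the 11 lymphatic genes, 10 were higher in array 1 than in the mean of the other 2 arrays, by a median of 0.19.

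Genes of endothelial signalling systems were above background more often than the 62.6% of all genes, in lists chosen with earlier results known. In the VEGF, angiopoietin and apelin list all 17 genes were above background. Receptors led it (Kdr; Nrp1, a VEGF coreceptor, 13.15; Tie1, 13.06) and the ligands Vegfb (9.26) and Pgf (8.65) were lowest. The BMP and TGF-β list was above background in 24 of 24 genes, from the receptor Acvrl1 (ALK1), with 13.19, 13.21 and 13.22, and Bmpr2 (13.11), to Acvr2b, Tgfb3 (9.85) and Bmpr1a (9.39). Of the Notch and Wnt list 23 of 24 genes were above background, led by Ctnnb1 (β-catenin, 12.97), Hey1 and Notch1 (12.50), with Rspo3 (7.86) and Hey2 lowest. Among 31 endothelial transcription factors, all above background, Epas1 was followed by Klf4 (12.70), a factor of shear stress, and Erg (12.52), and Foxc1 (8.63) and Lyl1 (7.80) were lowest.

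Genes of vessel tone, lipid uptake and matrix followed. Ace, which makes angiotensin II on the lung capillary surface, had 13.21, 13.35 and 13.36 and led the coagulation and vasomotor list (23 of 23 above background, median 11.78), followed by the caveolar genes Cavin2 (13.13) and Cav1 (13.04), with F8 (9.40) and Nt5e (8.45) lowest. Cd36, a fatty acid receptor, had 12.88, 12.91 and 12.89, and Stra6, the receptor of retinol-binding protein, was below background (7.43, 7.12 and 7.33). In the basement membrane list (17 of 17 above background, median 10.32) Col4a1 was joined by Sparc and Col4a2 (13.16), and Col4a4 (9.02) and Nid2 (8.25) were lowest. In the junction list 18 of 19 genes were above background, with Cldn5, Pecam1 and Cdh5 highest, and with Jam3 (9.07) and Cgn (8.07) lowest.

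Immune genes were graded. MHC class I genes H2-D1 (13.31) and H2-K1 (13.27), whose sequences are close enough for probes to be shared, and B2m (13.25) led the antigen presentation list (17 of 18 above background, median 10.88). Its lowest were H2-DMa (8.61) and Ciita, the class II transactivator (7.56, above background in 1 array). In the adhesion and chemokine list (18 of 20, median 11.27) Podxl (13.36), Icam2 (13.25) and Icam1 (13.07) were high, and Madcam1 (6.95) and Cxcl9 (6.78) were below background. Interferon-stimulated genes had a median of 10.26, with 19 of 20 above background. Bst2 (12.42), Iigp1 (12) and Gbp2 (11.96) were highest, and Mx2 (8.60) and Mx1 (7.24) lowest.

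Genes that tissue digestion is known to induce were high in healthy ECs. All 20 were above background, with a median of 12.31 at percentile 96.5. The immediate-early gene Fos had 13.27, 13.16 and 13.07, Dusp1 averaged 13.10 and Egr1 had 13.04, 13.07 and 13.15, while the heat-shock genes Hspa1b (9.90) and Hspa1a (8.69), near-identical copies, were lowest. The part of digestion in these levels was not tested. Proliferation genes were low (median 8.47), apart from Pcna (12.24), Mcm5 (10.20) and Mcm2 (9.93). Of these genes 9 of 15 were above background, near the 62.6% of all genes.

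**Figure D2:**
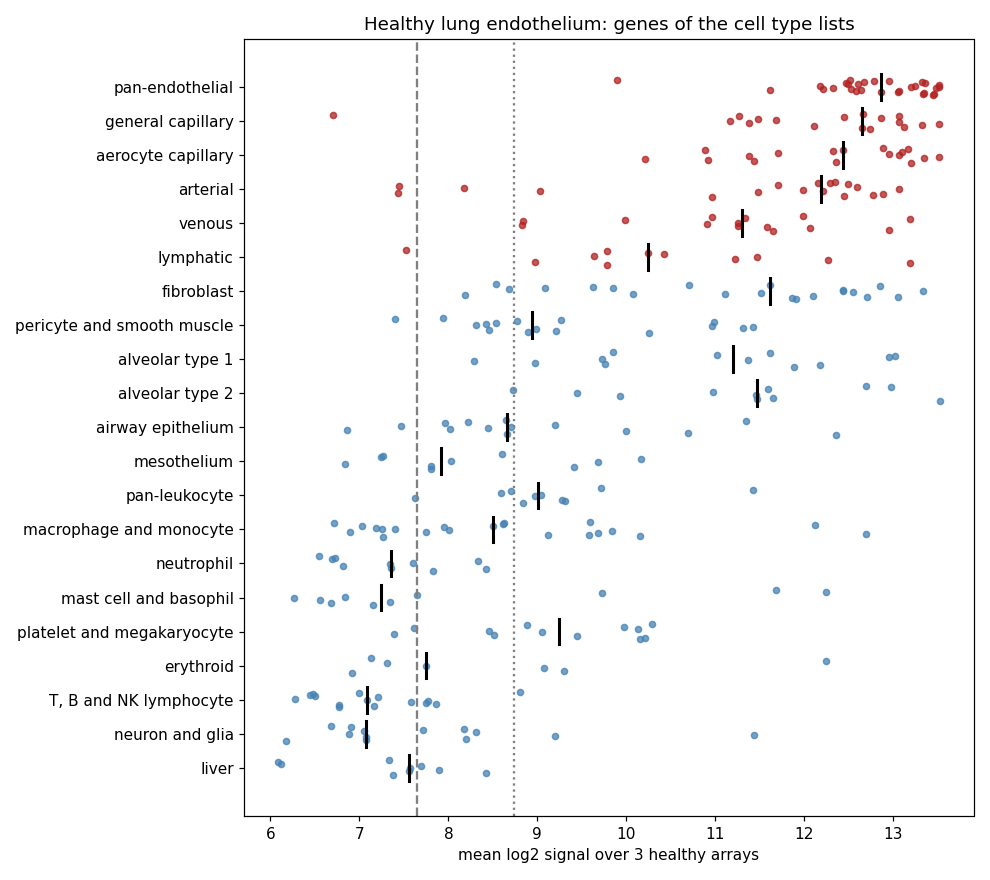
Mean log2 signal over the 3 healthy arrays of each gene (points) of 6 endothelial lists (red) and 15 lists of other cell types (blue), with the list median as a black bar. The dashed line is the highest healthy background (7.65) and the dotted line the median gene (8.74). The endothelial medians run from 12.86 down to 10.24, and fibroblast and both alveolar medians lie above the lymphatic one.

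Traces of other cell types were of very different size. Of the fibroblast list all 21 genes were above background, with a median of 11.61 at percentile 91.1 (11.62, 11.84 and 11.43 in arrays 1, 2 and 3). The median was 9.67 where each gene was read as the mean of all its probe sets. The list ran from Inmt, a methyltransferase of lung fibroblasts (13.38, 13.33 and 13.30), collagen Col3a1 (13.08, 13.05 and 13.01) and the actin-binding protein Gsn (12.85) to Slc7a10 (8.54) and Lum (8.19). Mural cell genes were lower, with a median of 8.94 (15 of 16 genes above background). The smooth muscle genes Tagln (11.42) and Acta2 (11.31) led them, followed by Postn (10.99), and Trpc6 (7.40) was below background.

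Epithelial genes were of 2 grades. The alveolar type 2 list had a median of 11.47 (11.56, 11.48 and 11.44 in arrays 1, 2 and 3), which differed from that of the fibroblast list by less than the spread between arrays, and the alveolar type 1 list one of 11.19, with 11 of 11 and 12 of 12 genes above background. Next to Sftpc stood the lysozyme genes Lyz1 (12.97) and Lyz2 (12.69), which share near-identical sequence and which macrophages also express, and Etv5 (8.73) was lowest. Clic5 (13.02) and Emp2 (12.95) led the type 1 list. Emp2 is also on the aerocyte list, so it does not separate the cells. Ager, the receptor that marks type 1 cells, had 11.97, 12.02 and 11.65, and Rtkn2 (8.29) was lowest. The airway list was near the median gene (8.66), with 11 of 14 genes above background, against 62.6% of all genes. Its highest members were the club cell secretoglobin Scgb1a1 (12.36), Tppp3 (11.34) and Scgb3a2 (10.69). Foxj1, the factor of ciliated cells, was below background (6.86). Mesothelial genes had a median of 7.91, with 4 of 10 above background in 3 arrays, led by Gpm6a (10.16).

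Medians of the blood cell lists lay below those of the fibroblast and alveolar lists. Over all genes, 62.6% were above background in all 3 healthy arrays. The macrophage count (14 of 21) and the erythroid count (4 of 7) lay near that share. Of the pan-leukocyte list 9 of 10 were above background (median 9.01), led by Lcp1 (11.42), an actin bundler. Of the macrophage list 14 of 21 were above background (median 8.50), among them the lysosomal glycoprotein Cd68 (10.15), the mannose receptor Mrc1 (9.68), Mpeg1 (9.59), the growth factor receptor Csf1r (9.12) and the complement gene C1qa (8.11, 8.10 and 7.81), while Adgre1 (7.26) and C1qc (7.25) were below background in all 3 arrays. Of the T, B and NK lymphocyte list 2 of 15 passed (median 7.08). They were Prkdc (8.81), a DNA repair kinase that most cells express, and Cd79a (7.77), which stood near the threshold. Cd3e (6.77), Ms4a1 (6.28) and Nkg7 (6.44) were below background. Platelet genes had a median of 9.25 (10 of 12), and the platelet factors Ppbp and Pf4 had means of 10.21 and 10.15. Neutrophil genes (2 of 10, median 7.35) and liver genes (2 of 9, median 7.56) were mostly at background. In the mast cell list 3 of 10 passed, and they were Gata2 (12.24), Kit (11.68), both of which ECs express and other lists hold, and Hdc (9.73), while the mast cell protease gene Cpa3 had 7.23, 7.24 and 6.98. Of the erythroid list 4 of 7 passed, led by carbonic anhydrase Car2 (12.24), and Hba-a1 was below background (6.92). In the neuron list 5 of 13 passed, and Stmn2, a microtubule regulator, stood out with 11.43, 11.54 and 11.32.

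The 3 healthy arrays were close to each other. Over all probe sets they correlated at r = 0.981 to 0.982, across probe sets, which are not independent, against 0.961 to 0.981 between metastatic and healthy arrays. Arrays of the same metastatic week correlated at 0.973 to 0.983, so the healthy arrays were not closer than other replicates. The median gene had an SD of 0.147 over the 3 healthy arrays, against 0.176, 0.131 and 0.143 in weeks 1, 2 and 3. Of the genes above background, 182 had a healthy SD over 0.5. The steadiest genes above the 90th percentile of signal (11.51) were Aida (mean 11.82, SD 0.003), Cdc42, a small GTPase of the cytoskeleton (12.97, SD 0.003), Akirin2 (11.60, SD 0.004), Snrpe (11.75, SD 0.005) and the lipid phosphatase Plpp3 (13.00, SD 0.005).

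**Figure D3:**
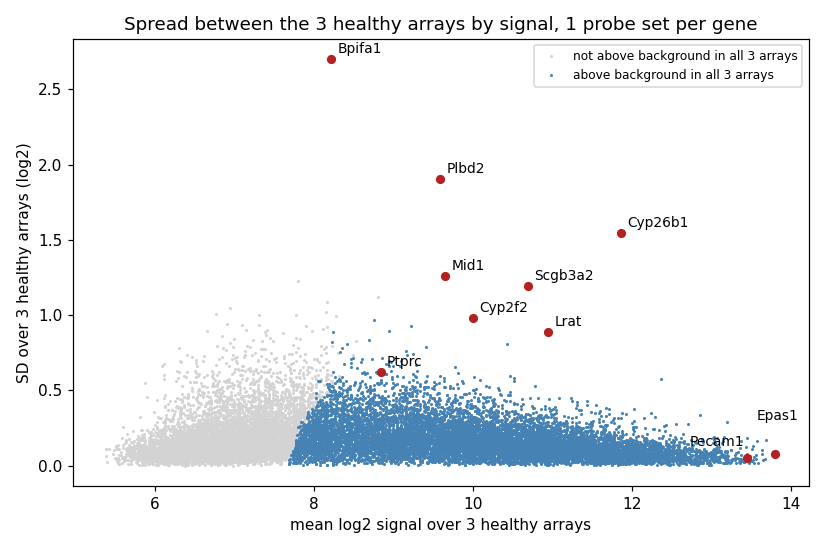
SD over the 3 healthy arrays against mean log2 signal for 18193 genes, in blue where the gene was above background in all 3 arrays and in grey otherwise. The median SD is 0.147, and the named genes Cyp26b1, Mid1, Scgb3a2, Cyp2f2 and Lrat stand above the cloud.

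Among genes above background, Cyp26b1, which degrades retinoic acid, varied most, with 11.10, 13.64 and 10.84 in arrays 1, 2 and 3. Lrat, which stores retinol as ester, was also highest in array 2 (10.82, 11.90 and 10.15). Array 2 stood apart for airway genes too. Scgb3a2 had a log2 signal of 12 in array 2 and of 9.66 and 10.42 in arrays 1 and 3, and Cyp2f2, a club cell cytochrome P450, had 9.03, 10.99 and 9.97. Of the 14 airway genes 13 were higher in array 2 than in the mean of the other arrays, by a median of 0.48. Bpifa1, an airway secretory protein chosen after its values were seen, had 6.42, 11.32 and 6.91, above background in array 2 only. The arrays differed for other cell types as well. All 10 mesothelial genes were lower in array 3 than in the mean of the other 2, by a median of 0.76, and so were 10 of 10 pan-leukocyte genes, by a median of 0.40. Proliferation genes were higher in array 1 by a median of 0.73 (10 of 15 genes). Mki67, the proliferation marker, had 10.09, 8.97 and 8.69. The pan-endothelial genes differed between arrays by a median of at most 0.02.

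Some variable genes belonged to no list. Mid1, a ubiquitin ligase gene, had 9.19, 8.69 and 11.07, and Brwd3 had 9.84, 8.16 and 9.67. The remaining genes of largest SD were Gm34344 (SD 0.97), Rec114 (0.90), Sbsn (0.89) and Gm4876 (0.84). Plbd2, a lysosomal protein gene chosen after its values were seen, had 10.29, 7.44 and 11.05 by 1 probe set and 9.71, 7.30 and 10.39 by its other probe set, so both were low in array 2. Its 9 metastatic arrays lay between 10.81 and 11.17.

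**Figure D4:**
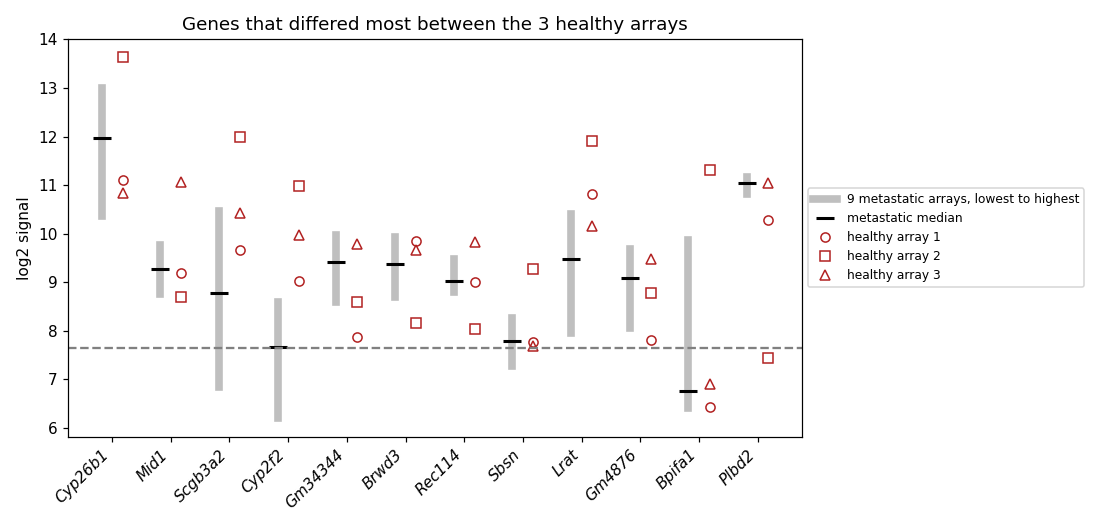
Log2 signal of the 10 genes above background with the largest SD over the healthy arrays, and of Bpifa1 and Plbd2, with the 9 metastatic arrays (grey bar from lowest to highest, black line at the median) left of the 3 healthy arrays (red symbols). Healthy array 2 (squares) is highest for Cyp26b1, Scgb3a2, Cyp2f2, Lrat, Sbsn and Bpifa1 and lowest for Mid1, Brwd3, Rec114 and Plbd2.

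To show where healthy ECs differ from the rest of the series, the mean of the 3 metastatic weeks was compared with healthy ECs by limma in a fit of all 4 groups, with Benjamini-Hochberg adjustment over 45037 probe sets. At an adjusted p below 0.05, 137 of 18193 genes (0.753%) rose in metastatic ECs and 336 (1.85%) fell. Over all probe sets 280 (0.622%) rose and 619 (1.37%) fell. The median difference over all genes was 0.03. Of the 500 genes of highest healthy signal 1 rose and 6 fell. None of the 29 pan-endothelial, 17 general capillary or 17 aerocyte genes passed the test. Of 18 arterial genes 2 fell, of 14 venous genes 1 fell, and of 11 lymphatic genes 0 passed. At the shares over all genes few calls are due in lists of this size, so an absence of calls is not read as a result. Many of these signals also lie near the top of the scale, where signals flatten. With week 3 alone against healthy ECs, 1 pan-endothelial gene rose, 1 general capillary gene fell, and 1 aerocyte gene rose and 1 fell. Over all 45037 probe sets the week 3 fit called 877 rises and 1049 falls. Week 1 alone gave 2 rises and 14 falls, and week 2 alone gave 25 and 46. List counts of single weeks are to be read beside these totals. Without healthy array 3, 1 pan-endothelial gene rose. Epas1 had a log2 difference of -0.05 (SE 0.07, adjusted p = 0.792) and Pecam1 one of 0.03 (SE 0.07), and of the first 100 genes in healthy ECs, 87 were among the first 100 in metastatic ECs.

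Fibroblast and mural genes that passed the test were all lower in metastatic ECs, that is, higher in healthy ones. Ptprc (log2 difference -0.23, adjusted p = 0.79) did not pass. Itgam (-0.39, adjusted p = 0.392) and Epcam (-0.26, adjusted p = 0.184) did not pass either. Both were below background in every healthy array, so a fall in them could not be read. Of 21 fibroblast genes 15 fell and 0 rose, against 1.85% and 0.753% of all genes, with a median difference of -0.79. The lists were chosen with earlier results of these data known, so such counts describe a list and do not test it. Pdgfra ranged from 9.12 to 10.78 (median 9.99) over the 9 metastatic arrays, against 11.93, 11.99 and 11.82 in healthy arrays, so the groups did not overlap (log2 difference -1.78, SE 0.22, adjusted p = 0.00207). Gsn ranged from 10.74 to 11.94 (median 11.79) in metastatic arrays, against 12.82, 12.93 and 12.79 in healthy arrays (log2 difference -1.36, SE 0.09, adjusted p = 6.45e-05). Tcf21, a fibroblast transcription factor, fell by 1.32 on the log2 scale. Left without healthy array 1, 2 or 3, the fibroblast list had 8, 8 and 9 genes that fell, and its median difference was -0.79, -0.75 and -0.82. With week 1, 2 or 3 alone against healthy ECs 0, 4 and 12 fibroblast genes fell (median differences -0.64, -0.83 and -1.07), and with metastatic and healthy arrays fitted as 2 groups 9 fell. Each week has 3 arrays, and differences between the weeks were not tested. Of 16 mural genes 5 fell (median -0.53), among them Abcc9, a channel subunit of pericytes (-1.81), Pdgfrb (-1.23) and Acta2 (-1.05). Pdgfrb did not pass without 1 of the healthy arrays (highest adjusted p = 0.0915). Without healthy array 1, 2 or 3, 2, 2 and 4 mural genes fell, and with week 1, 2 or 3 alone 0, 2 and 4 fell.

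Alveolar genes that passed the test all fell. Of 12 type 1 genes 6 fell (median -0.95), with Sec14l3 ranging from 8.01 to 10.29 (median 8.72) in metastatic arrays, against 11.30, 11.08 and 10.67 in healthy arrays (log2 difference -2.14, SE 0.29, adjusted p = 0.00363). Cldn18, a claudin of alveolar epithelium (-1.67), and Ager (-1.40) fell too. Without healthy array 1, 2 or 3 the type 1 list had 2, 1 and 3 genes that fell, and with week 1, 2 or 3 alone 0, 0 and 8 fell. Of 11 type 2 genes 2 fell, the phosphate transporter Slc34a2 (-1.71) and the protease Napsa (-1.09), and 0 fell without any 1 of the healthy arrays, against 5 with week 3 alone. Sftpc ranged from 12.39 to 13.40 (median 12.86) in metastatic arrays, below all 3 healthy arrays, and did not pass (log2 difference -0.65, SE 0.19, adjusted p = 0.117). In the airway list Cyp2f2 (-2.35) and the epithelial cadherin Cdh1 (-1.46) fell and the secretoglobin Scgb3a1 (1.42) rose. Without healthy array 2 or 3, 0 airway genes fell, and Scgb3a1 did not pass without array 1 (adjusted p = 0.0501). Among genes of blood cells, Cd68 (-0.96), Mpeg1 (-0.66) and Cd163 (-0.69) of the macrophage list, Coro1a (-0.63) of the pan-leukocyte list, and Pf4 (-0.75) and Tubb1 (-0.95) of the platelet list fell. Of these 6 only Cd68 passed without each of the healthy arrays in turn. Cd163 was below background in all 3 healthy arrays (7.11, 6.36 and 6.66), so its fall lay below that level. The leukocyte lists did not move one way over the weeks. With week 3 alone 3 macrophage genes rose and 1 fell (median difference 0.08, against -0.45 in week 1 and -0.55 in week 2). The pan-leukocyte list had 0 calls in each week alone, with median differences of -0.66, -0.42 and 0.25 in weeks 1, 2 and 3. Ptprc averaged 8.19, 8.43 and 9.24 in weeks 1, 2 and 3 and 8.84 in healthy arrays. The platelet list had median differences of -0.76, -0.18 and -0.03 with week 1, 2 or 3 alone. In that list 1 gene fell with week 1 alone, and 1 rose with week 3 alone. No neutrophil, mast cell or T, B and NK gene passed over all metastatic arrays (median differences 0.13, 0.20 and 0.04), and 2 mast cell genes rose with week 3 alone.

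Interferon-stimulated genes were lower in healthy ECs. Of 20 genes 14 rose in metastatic ECs and 0 fell, against 0.753% and 1.85% of all genes (median difference 0.81). This list too was chosen with earlier results of these data known. Without healthy array 1, 2 or 3 the number that rose was 12, 11 and 11. With week 1, 2 or 3 alone 1, 8 and 15 rose (median differences 0.74, 0.65 and 1.04), and with 2 groups 11 rose. Rsad2, an antiviral enzyme, ranged from 10.61 to 12.23 (median 11.53) in metastatic arrays, against 9.51, 9.75 and 9.18 in healthy arrays (log2 difference 2.12, SE 0.15, adjusted p = 8.94e-05). Mx1, below background in healthy ECs, rose by 1.76 and Oas1a, an RNA sensor, by 1.70. In the antigen presentation list Nlrc5 (1.18), the class I transactivator, Cd274 (0.95), which encodes PD-L1, Ciita (0.75), Tap1 and Psmb9 rose and Cd74 (-0.65) fell. Without any 1 healthy array 2 genes of that list rose and 0 fell. Cxcl10 rose by 1.85 and Cxcr4 by 0.41 in the adhesion list.

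Single genes of the other lists differed as well, most of them not in every setting. Of 78 called list genes, up to 3 per list by size were examined singly, 46 in all, and the others were not. Of these 46, 20, 19 and 29 still passed without healthy array 1, 2 or 3, and 17 passed in all 3 cases. Those 17 were Abcc9, Acta2, Gsn, Pdgfra, Tcf21, Sec14l3, Cd68, Adm, Aldh1a1, Cd274, Nlrc5, Col15a1, Col4a4, Cxcl10, Mx1, Oas1a and Rsad2. Ltbp4 (-0.51) and the matrix Gla protein Mgp (-0.52) fell among arterial genes, Angpt1, the ligand of Tie2 (-1.21), in the VEGF list, Bmpr1a (-1.19) and Id2 (-0.55) in the BMP list, Heyl (-0.88) in the Notch list, and Meox2 (-0.64) among transcription factors. Adm, which encodes adrenomedullin, fell by 0.79, and its difference ran from -1.34 to -0.131 over the alternative settings. In the basement membrane list Col15a1 rose (1.05) and Col4a3 (-1.57), Col4a4 (-1.23) and Lama3 (-1.03) fell. In the lipid and retinoid list Lrat (-1.68), the retinal dehydrogenase Aldh1a1 (-1.52) and Apoe (-0.63) fell and Scarb1 (0.32) rose, and Scarf1 (0.47) rose among scavenger receptors. Fosb (-0.47) and Hspa1b (-0.75) fell in the dissociation list. Over the alternative settings Ltbp4 ran from -0.841 to -0.11, Fosb from -0.91 to -0.106 and Scarb1 from 0.0679 to 0.596. The part of fibroblast, mural and epithelial RNA in these differences was not tested.

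**Figure D5:**
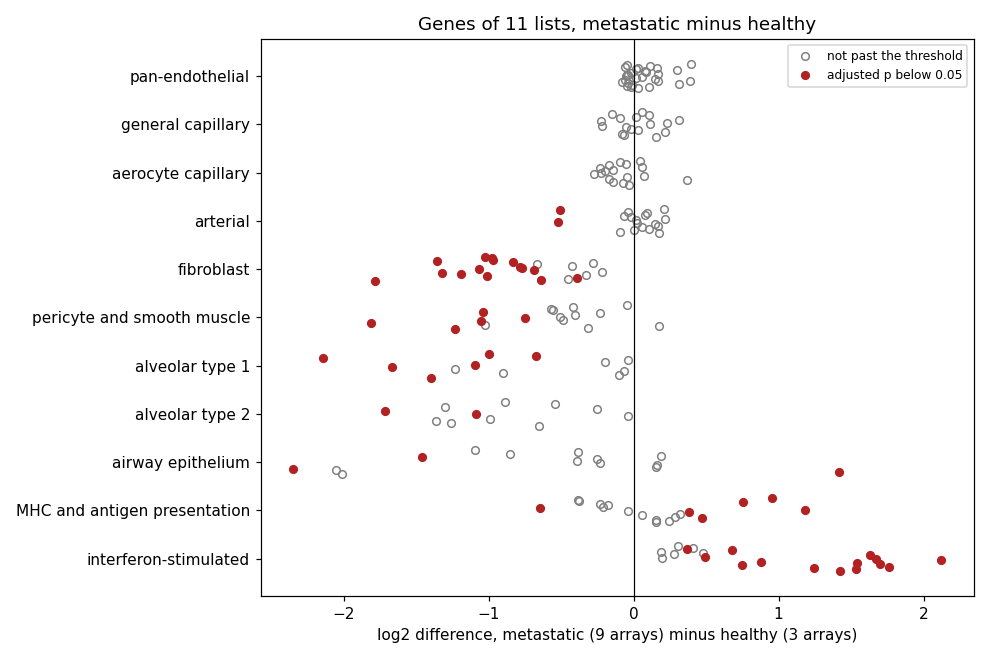
Log2 difference of metastatic (9 arrays) minus healthy (3 arrays) for each gene of 11 lists, filled red where the adjusted p was below 0.05 and open grey otherwise. The pan-endothelial, general capillary and aerocyte lists hold no filled point, and the arterial list holds 2. Fibroblast points lie left of 0 with 15 of 21 filled, and interferon-stimulated points lie right of 0 with 14 of 20 filled.

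Array quality was compared between metastatic and healthy arrays in 3 exact two-sided permutation tests (220 assignments, smallest p 0.00455). The Gapdh control probe set at the 3′ end exceeded that at the 5′ end, a gap that grows with RNA degradation, by 0.38 ± 0.09 (SD, n = 9) in metastatic and 0.52 ± 0.16 (SD, n = 3) in healthy arrays (exact p = 0.0909, adjusted over the 3 tests 0.136). The gap of Actb was 0.08 ± 0.05 in metastatic and 0.12 ± 0.08 in healthy arrays (exact p = 0.332). From 10721 to 11965 genes were above background in each metastatic array, against 12108, 12031 and 12200 in healthy arrays (exact p = 0.0409, adjusted 0.123), and metastatic background thresholds were 7.70 to 8.20.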

How the data were processed

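RNA of sorted lung ECs was amplified, labelled with biotin and hybridised to Affymetrix mouse genome arrays with 3′ probe sets. The deposited log2 signals were used unchanged. The authors had made them in Chipster with the robust multiarray average, which corrects background, quantile-normalizes the arrays and summarizes each probe set. Of 45101 probe sets, 64 array controls were set aside. Of the rest, 34945 carried 1 gene symbol, 932 several and 9160 none in the platform annotation, with symbols updated through RefSeq. Only probe sets with 1 symbol named a gene. Of the list genes 512 of 544 were measured, and the others were not analysed here.

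Metastatic minus healthy was fitted with limma 3.58.1 (R 4.3.3) on all 12 arrays, with Benjamini-Hochberg adjustment. This fit was tested on simulated data. Tables, permutation tests and plots were made in Python 3.11.15 (pandas 2.3.3, scipy 1.17.1, matplotlib 3.10.9). Choosing each gene's probe set by the healthy mean favours probe sets that are high in healthy arrays, and 487 genes had another probe set by the mean over 12 arrays. Named genes were drawn from the 20 of highest signal and the 30 of highest signal without housekeeping families. They were also drawn from the 3 highest and 2 lowest of each of 35 lists and from the markers and sort genes. The 10 most and 5 least variable genes, and up to 3 called genes per list by size, were added. Not every gene under these rules is named, as in the macrophage, scavenger, neutrophil and liver lists. Other genes are named as examples or were chosen after their values were seen. Members and lists were chosen with earlier results of these data known. Precision is limited by having 3 arrays in each group. Alternatives were other background percentiles, probe set rules, normalizations, variance settings and groups in the fit, and arrays left out.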

Additional observations from a re-analysis of the deposited data

How the results depend on the processing

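The number of genes above background in healthy ECs stayed between 9040 and 12722 in 10 alternatives, against 11395, and was 11593 to 11658 with 1 healthy array left out. From 84.3% to 92.7% of the first genes were found again in the held-out array under 4 alternatives, against 82.7%. List medians moved where a gene was read as the mean of all its probe sets, by more than the spread between arrays in 29 of 35 lists, and the fibroblast median was then 9.67.

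The comparison of metastatic with healthy ECs varied with the arrays and groups in the fit. In place of 899 probe sets, 353 passed with 2 groups only, and 16, 71 and 1926 with week 1, 2 or 3 alone. With 1 of the 12 arrays left out, 296 to 1009 passed, the lowest without healthy array 2. Of the list genes 78 passed (25 rose, 53 fell), 37 with 2 groups only, and 32 to 49 with 1 healthy array left out. The labels do not say whether the replicate numbers pair the arrays. Deviations from group means correlated at -0.104 to 0.065 in 18 same-numbered pairs, which cannot decide it. With the replicate numbers as a block, 666 probe sets and 57 list genes passed. Other normalizations, variance settings and filters gave 788 to 1129 probe sets. The cause was not tested.

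The alternatives for array quality were chosen after seeing the data. With 1 array left out, the metastatic minus healthy difference was -0.217 to -0.0554 for Gapdh (exact p = 0.0364 without healthy array 3) and -0.0706 to 0.00741 for Actb, where the sign turned without healthy array 1. It was -567.5 to -412 for genes above background, where p rose to 0.0909 to 0.145 without a healthy array and to 0.0545 without array 2 of week 2. At the 99th percentile of background it was -511.1 (exact p = 0.191), and at the 90th -480.3. With 3 healthy arrays the precision of each mean is limited, and genes near background have no order.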
